A study of Mus musculus with 8 samples.

Results

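The genes described here are 10 members of the squamous and basal programme of stratified epithelia, among 27179 genes counted in primary 4T1.13 tumours: Fam25c, Sprr1a, Sprr1b, Ivl, Dsg3, Dsc3, Trp63, Sfn, Calml3 and Perp. They were picked by name with the difference between the same 2 groups of tumours already known, so their own differences are given below as a description. Where a member is said to lie past the threshold of the fit across all genes, that places it in the fit and is no independent test of it. 4T1.13 is a metastatic mouse mammary carcinoma line of BALB/c origin. In both groups 100000 cells, by the labels, were placed in a mammary fat pad of immunocompetent mice of the BALB/c strain. The study's figure legends give a larger number for its growth and immune-profiling experiments with these cells. The tumours were recovered on day 14 by the labels. The study's methods give an earlier day, and it is for that day that the study reports the start of regression in the knockdown tumours. The 4 vector control tumours (VC) came from cells that carried the miArrest lentiviral vector with a scrambled sequence. The 4 miR-21-KD tumours came from cells in which the same vector, under the H1 promoter, expressed an RNA that sequesters mature miR-21. Both vectors also carried mCherry and a hygromycin B resistance gene, each line was a pool of 6 clones, and the cells of the host kept their own miR-21. Mature miR-21 is not measured by the gene counts, so the knockdown itself was not checked here. The tumours had 12134849 to 13592695 reads on genes, and values are given as CPM, counts relative to the TMM-scaled library size. A tumour with no read of a gene can hold up to 3 reads by counting error alone, or 0.221 to 0.244 CPM.

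In skin and other stratified epithelia, basal cells sit on the basement membrane, express p63 with keratins 5 and 14, and give rise to cells that move outwards and cornify. During cornification, precursor proteins such as involucrin and the small proline-rich proteins are crosslinked by transglutaminases beneath the plasma membrane, and desmosomes, whose cadherins are the desmogleins and desmocollins, hold the cells together. In the mammary gland, p63 and the basal keratins mark the myoepithelial layer, whereas keratins 8 and 18 mark the luminal layer. In whole tumours, a larger number of such cells and more RNA per cell cannot be told apart.

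The sequence that the knockdown vector sequesters is shown to let its seed be compared with the members. Mature miR-21a-5p, from RefSeq on GRCm38.p6 at chr11:86584120-86584141, minus strand, has its seed (bases 2 to 8) in capitals.

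mmu-miR-21a-5p: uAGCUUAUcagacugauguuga

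For each gene, the search took the annotated principal transcript, or the longest where several or none were so marked. The match to this seed, ATAAGCT, occurred in the 3′UTR of that transcript for 0 of the 10 members. It occurred in 6.69% of 20510 genes with a 3′UTR of at least 30 bases. Other transcripts of a gene, whose 3′UTRs can be longer, were not searched. The 3′UTRs of the members were 63 to 3129 bases long, against a median of 863 bases over all genes. Only these 7 letters were searched, on the strand of the gene.

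Promoter windows, from 250 bases before to 50 bases after the RefSeq start, were available for 5 of the 10 members (Sprr1a, Sprr1b, Ivl, Fam25c and Sfn). Of these, 4 are printed because they belong to the genes with the widest differences between groups (Fam25c and Sprr1a) or lie in the same gene cluster with far fewer reads (Ivl and Sprr1b). Capitals mark the AP-1 motif TGAGTCA or its reverse complement TGACTCA, and the motif TATAAA read on the gene's strand. The windows lie on the minus strand of GRCm38.p6 at chr14:34355344-34355643 (Fam25c), chr3:92485832-92486131 (Sprr1a), chr3:92438730-92439029 (Sprr1b) and chr3:92573686-92573985 (Ivl). Positions are counted from the RefSeq start used for each window. For Fam25c the whole window lies inside the gene's annotated span, chr14:34351882-34358339, so this start is not the outer end of that span. For Ivl and Sprr1b the start used also lies inside the span, close to its end.

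Fam25c: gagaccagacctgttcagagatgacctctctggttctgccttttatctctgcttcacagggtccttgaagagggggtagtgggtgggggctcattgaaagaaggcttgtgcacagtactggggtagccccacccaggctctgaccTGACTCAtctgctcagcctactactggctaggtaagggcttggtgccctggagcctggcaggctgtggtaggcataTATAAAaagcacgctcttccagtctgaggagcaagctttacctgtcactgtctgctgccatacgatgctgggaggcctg
Sprr1a: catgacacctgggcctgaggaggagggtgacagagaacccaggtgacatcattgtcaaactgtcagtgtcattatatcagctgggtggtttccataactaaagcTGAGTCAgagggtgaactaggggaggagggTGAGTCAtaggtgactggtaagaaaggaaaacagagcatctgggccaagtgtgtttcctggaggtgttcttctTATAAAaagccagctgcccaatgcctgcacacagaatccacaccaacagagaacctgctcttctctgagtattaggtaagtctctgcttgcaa
Sprr1b: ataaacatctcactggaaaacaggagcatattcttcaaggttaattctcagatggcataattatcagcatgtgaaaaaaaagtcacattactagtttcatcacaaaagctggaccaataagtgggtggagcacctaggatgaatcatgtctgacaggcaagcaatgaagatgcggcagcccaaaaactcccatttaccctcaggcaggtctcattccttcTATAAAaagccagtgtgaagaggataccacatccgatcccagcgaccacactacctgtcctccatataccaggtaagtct
Ivl: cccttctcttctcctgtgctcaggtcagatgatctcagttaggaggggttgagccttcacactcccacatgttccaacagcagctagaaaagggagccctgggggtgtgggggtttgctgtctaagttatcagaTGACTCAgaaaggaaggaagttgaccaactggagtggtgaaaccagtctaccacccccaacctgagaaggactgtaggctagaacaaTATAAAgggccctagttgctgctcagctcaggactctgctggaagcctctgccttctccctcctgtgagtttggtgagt

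Sprr1a held 2 AP-1 motifs, which start 146 and 116 bases before the gene's start. Fam25c held 1, 105 bases before the start, and Ivl held 1, 116 bases before it. None was found in the windows of Sprr1b and Sfn. Over all 32851 mouse promoters in the table, 5.20% held at least 1 such motif and 0.222% held 2 or more. TATAAA lay 29 bases before the start of Fam25c and of Ivl, 30 before that of Sprr1b and 43 before that of Sprr1a, was not found for Sfn, and occurred in 8.32% of all windows. Such matches describe the letters of the window and were not tied to any factor by these data.

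Of the 10 members, 5 had enough reads to be tested across all genes (Fam25c, Sprr1a, Trp63, Sfn and Perp), and 3 of these, Fam25c, Sprr1a and Sfn, lay past the threshold of the fit (edgeR quasi-likelihood test, adjusted p under 0.05 over 14382 tested genes) with higher levels in miR-21-KD tumours. Over all tested genes, 39.1% passed the threshold, 19.6% with higher and 19.5% with lower levels in miR-21-KD, so that nearly 4 in 10 genes differed in this contrast. The groups did not overlap, with every miR-21-KD tumour above every VC tumour, for 3 of the 5 tested members, as for 16.4% of all tested genes. Since the contrast itself chose the members, no more is read from these shares. The filter on low counts asks for about 10 reads in 4 tumours, and Fam25c, with that many in 0 VC and 4 miR-21-KD tumours, and Sprr1a, in 2 and 4, could not have passed it without the miR-21-KD tumours. The plot of all members by tumour shows the 8 values of each gene.

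**Figure D1:**
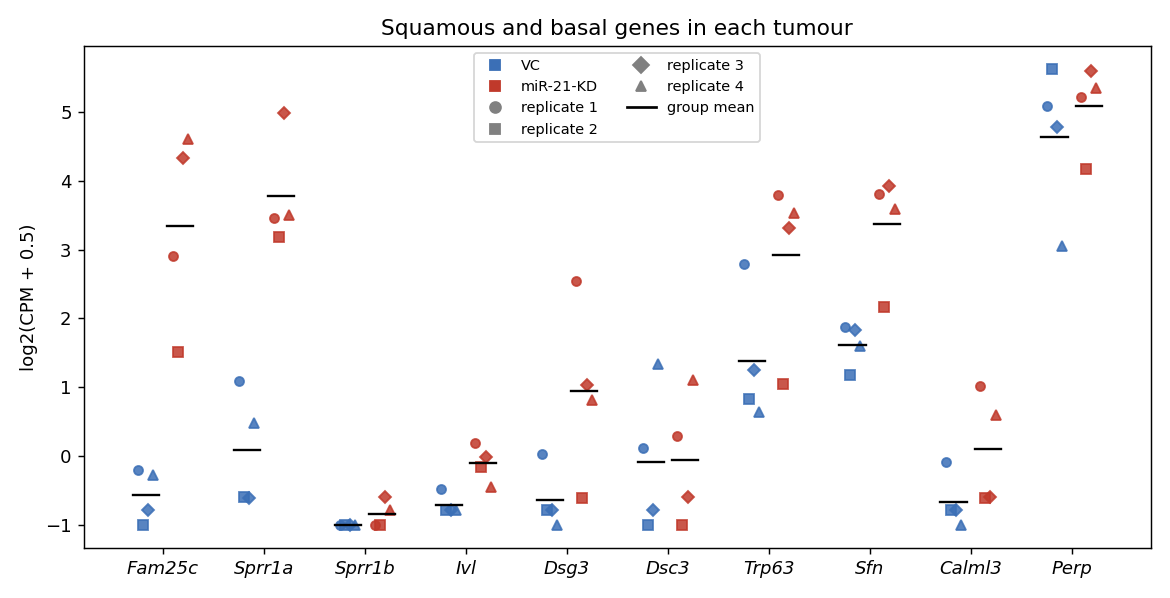
Level of each member as log2(CPM + 0.5) on the vertical axis in 4 VC tumours (blue) and 4 miR-21-KD tumours (red), with the marker shape giving the replicate number and the black bar the group mean on this scale. Fam25c, Sprr1a, Ivl and Sfn are separated between the groups, Dsc3 and Perp are mixed, and miR-21-KD 2 (red square) lies low for nearly every gene.

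Among the precursors of the cornified envelope, Sprr1a (Entrez 20753, chr3:92483954-92485881), which encodes a small proline-rich protein that is crosslinked into the envelope, was counted in every tumour. Its levels were 1.62, 0.159, 0.157 and 0.896 CPM in VC 1 to 4 and 10.5, 8.56, 31.1 and 10.9 CPM in miR-21-KD 1 to 4. Every miR-21-KD tumour was above every VC tumour, and miR-21-KD 3 stood well above the other knockdown tumours. The group means were 0.708 ± 0.701 and 15.3 ± 10.6 CPM (SD, n = 4 each), and the log2 fold change was 4.39 (SE 0.74). The log2 fold change was 5.22 without VC 1 and 3.78 without miR-21-KD 3.

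Sprr1b (Entrez 20754, chr3:92436808-92438817), its close neighbour and paralogue, had 0 reads in each of the 4 VC tumours and 0, 0, 2 and 1 reads in the miR-21-KD tumours. Both groups lay at or below the floor of 3 reads per tumour, so no fold is given. The counting of reads shared by such near-identical genes is not described, and reads of one could have been given to the other or to neither.

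Ivl (Entrez 16447, chr3:92570899-92573790), involucrin, the early scaffold of the envelope, was scarce. It had 3, 1, 1 and 1 reads in VC 1 to 4 and 8, 5, 6 and 3 in miR-21-KD 1 to 4. Scaled for depth, all 4 miR-21-KD tumours exceeded all VC tumours, but with a narrow gap between VC 1 at 0.221 CPM and miR-21-KD 4 at 0.234 CPM. The pooled rate was 3.73 times that of VC (95% exact conditional interval 1.47 to 11.2, counting error only).

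The genes just named lie together in the epidermal differentiation complex on chromosome 3, and the annotation places 56 genes of the table there, from Pglyrp4 to Tchhl1 (chr3:90726906-93471980). No read fell on 29 of them, and 18 had more than 3 reads over the 8 tumours. Of these 18, 2 are members, and 14 of the other 16 had more reads in the miR-21-KD than in the VC tumours, beside 50.2% of all genes with more than 3 reads. The count is a description of scarce genes, since 6 of the 14 had 3 or fewer reads in the VC tumours and were counted only for their reads in the knockdown group. Lor (loricrin) and Flg (filaggrin), both proteins of the late granular layer, had 4 and 4 reads in VC and 3 and 0 in miR-21-KD tumours. Only 3 genes of the complex had enough reads to be tested, Sprr1a, Sprr2f and Sprr2a3. Each was higher in miR-21-KD, but Sprr1a is a member, and with at least 10 reads in 2, 0 and 2 VC tumours all 3 needed the miR-21-KD tumours to enter the test, so their number is not set against the share of all genes. The plot of reads along the complex shows that the difference sits mainly in the Sprr genes.

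**Figure D2:**
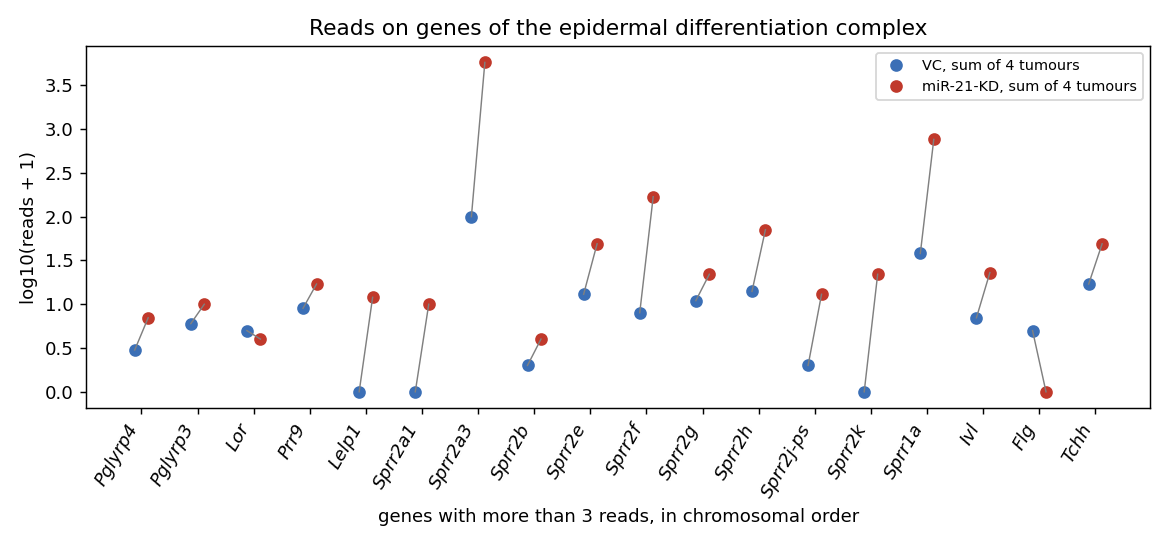
Reads summed over 4 VC tumours (blue) and 4 miR-21-KD tumours (red), as log10(reads + 1) on the vertical axis, for the 18 genes of the epidermal differentiation complex with more than 3 reads, in chromosomal order. Red lies above blue for 16 genes, the exceptions being Lor and Flg, and Sprr2a3 reaches 5780 reads against 99.

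Fam25c (Entrez 69134, chr14:34351882-34358339) showed the widest difference of the members. Its reads numbered 5, 0, 1 and 4 in VC 1 to 4 and 87, 30, 243 and 304 in miR-21-KD 1 to 4. The lowest knockdown tumour, miR-21-KD 2 at 2.36 CPM, was above the highest control, VC 1 at 0.368 CPM. The means were 0.193 ± 0.181 and 13.2 ± 10.2 CPM (SD, n = 4 each). The pooled rate in miR-21-KD was 67.5 times that in VC (95% interval 36.5 to 141, counting error only), and the fitted log2 fold change was 6.01 (SE 0.95). It ranged from 5.57 to 6.53 when each tumour was left out in turn.

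Trp63 (Entrez 22061, chr16:25683763-25892088) encodes p63, the transcription factor that defines the basal layer. Its levels were 6.41, 1.28, 1.89 and 1.06 CPM in VC 1 to 4 and 13.3, 1.57, 9.48 and 11.1 CPM in miR-21-KD 1 to 4. The other 3 knockdown tumours were above every control, whereas miR-21-KD 2 was below VC 1 and VC 3. The means were 2.66 ± 2.53 and 8.87 ± 5.11 CPM (SD, n = 4 each), and the log2 fold change was 1.73 (SE 0.73), short of the threshold of the fit. Which side of it Trp63 lay on changed with the setting. It lay past it with a block for the replicate number (1.78, SE 0.50), with DESeq2 (1.76, SE 0.71), without VC 1 (2.64, SE 0.68) and without miR-21-KD 2 (2.07, SE 0.59), and short of it without any other single tumour (1.46 to 1.69).

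Sfn (Entrez 55948, chr4:133600556-133602168) encodes 14-3-3 sigma, the epithelial 14-3-3 protein that binds keratins and holds cells in the G2 phase. Its levels were 3.17, 1.75, 3.07 and 2.52 CPM in VC and 13.5, 4.005, 14.8 and 11.5 CPM in miR-21-KD 1 to 4. The groups did not overlap, although miR-21-KD 2 was close to the controls. The means were 2.63 ± 0.649 and 10.9 ± 4.81 CPM (SD, n = 4 each), and the log2 fold change was 2.05 (SE 0.40) with a range of 1.87 to 2.32 when tumours were left out.

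The 14-3-3 family has 6 other genes, which are expressed in most cells, and all were tested. Of these, 4 fell in miR-21-KD and 0 rose (66.7% and 0%, beside 19.5% and 19.6% of all tested genes): Ywhaq by 0.61 (SE 0.10, adjusted p = 0.00601), Ywhae by 0.58 (SE 0.14, adjusted p = 0.0154), Ywhah by 0.42 (SE 0.11, adjusted p = 0.0182) and Ywhaz by 0.51 (SE 0.15, adjusted p = 0.0299), all on the log2 scale. Ywhab at 0.06 (SE 0.08) and Ywhag at -0.02 (SE 0.12) did not pass, and the sign of Ywhag turned under upper-quartile scaling, at 0.02. The call of Ywhaz was lost without any one of VC 1, VC 2, VC 3, miR-21-KD 1, miR-21-KD 3 or miR-21-KD 4, with log2 fold changes of -0.53, -0.52, -0.46, -0.40, -0.51 and -0.49. That of Ywhah was lost without VC 3, miR-21-KD 3 or miR-21-KD 4, at -0.38, -0.37 and -0.40. The difference between Sfn and its relatives was not tested.

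Calml3 (Entrez 70405, chr13:3802893-3804318), a calmodulin-like protein of epithelial cells, had 6, 1, 1 and 0 reads in VC 1 to 4 and 19, 2, 2 and 13 reads in miR-21-KD 1 to 4. The knockdown tumours fell into a pair at the level of the controls (2 and 3) and a pair above them (1 and 4). The pooled ratio was 4.57 (95% interval 2.09 to 11.4, counting error only). It was 13.4 without VC 1, which held 6 of the 8 control reads, and 2.87 without miR-21-KD 1.

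The calmodulins proper are calcium sensors of all cells. Calm2 fell by 0.52 (SE 0.13, adjusted p = 0.0161) and Calm3 by 0.37 (SE 0.08, adjusted p = 0.0105) on the log2 scale, while Calml4 at 0.17 (SE 0.37) did not pass. The call of Calm2 was lost without VC 3, at -0.49. Calm4, a skin calmodulin, had 19 of its reads in VC 1 and 1 in each of 2 other tumours, and Calm5 had 1 read in all.

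Among the desmosomal members, Dsg3 (Entrez 13512, chr18:20510274-20541310), the desmoglein of basal keratinocytes, had 7, 1, 1 and 0 reads in VC 1 to 4 and 66, 2, 19 and 16 in miR-21-KD 1 to 4. In the knockdown group, 3 tumours were above every control and miR-21-KD 2 was not. The pooled ratio was 11.6 (95% interval 5.90 to 26.2, counting error only), but it rested on few tumours, being 38.5 without VC 1 and 5.55 without miR-21-KD 1.

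Dsc3 (Entrez 13507, chr18:19960930-20002410), the desmocollin that pairs with it in basal cells, behaved otherwise. Its reads numbered 8, 0, 1 and 25 in VC and 9, 0, 2 and 21 in miR-21-KD 1 to 4. In both groups the tumours numbered 1 and 4 held nearly all reads and that numbered 2 held none. The pooled ratio was 0.957 (95% interval 0.572 to 1.60, counting error only), and it was 2.74 without VC 4 and 0.442 without miR-21-KD 4. The annotation places both genes in the desmosomal cadherin cluster of chromosome 18, where 2 of 9 genes could be tested, Dsc2 and Dsg2. Both rose, as did 19.6% of all tested genes, and no more is read from so small a number. Dsc2 had 10 reads in only 3 VC tumours, and the call of Dsg2 depended on single tumours, as given below. Of the 6 genes of the cluster with more than 3 reads, 3 had more reads in miR-21-KD and 3 (Dsc3, Dsc1 and Dsg1a) in VC tumours.

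Perp (Entrez 64058, chr10:18845071-18857073), a tetraspan membrane protein that desmosomes need and that p53 and p63 induce, was the most abundant member in CPM. Its levels were 33.4, 48.9, 27.1 and 7.82 CPM in VC 1 to 4 and 36.6, 17.6, 48.0 and 40.2 CPM in miR-21-KD 1 to 4. The groups were mixed, with the highest value in VC 2 and the lowest in VC 4. The means were 29.3 ± 17.02 and 35.6 ± 12.9 CPM (SD, n = 4 each), and the log2 fold change was 0.28 (SE 0.49), short of the threshold, and it lay between -0.04 without VC 4 and 0.64 without VC 2.

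Per kilobase of annotated exon, so that genes can be compared, Perp led the VC tumours at 15.01 ± 8.72 CPM per kb (SD, n = 4), followed by Sfn at 1.63 ± 0.402 and Sprr1a at 0.879 ± 0.869. Perp lay above the range of every other member there, and each later pair of neighbours in the order overlapped. In the miR-21-KD tumours the order began with Fam25c at 32.4 ± 24.9, Sprr1a at 18.9 ± 13.2, Perp at 18.2 ± 6.62 and Sfn at 6.78 ± 2.98 CPM per kb, with overlap between each pair of neighbours. Sfn and the next member, Trp63 at 1.06 ± 0.609, did not overlap. Calml3, Dsg3, Ivl, Dsc3 and Sprr1b followed, between 0.505 and 0.0724 CPM per kb.

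The members shared an order of tumours within the groups. For 9 of the 10, miR-21-KD 2 was the lowest knockdown tumour or tied for the lowest, the exception being Ivl. Of these, Sprr1b had 0 reads in both miR-21-KD 1 and 2, and Calml3 had 2 reads in both miR-21-KD 2 and 3, which differed only by depth. For 7 of the 9 members with a read in any control, VC 1 was the highest control, the exceptions being Dsc3 and Perp. This order was not particular to them, since among all 2826 genes called higher in miR-21-KD, miR-21-KD 2 was the lowest of its group for 71.7% and VC 1 the highest of its group for 54.0%. VC 1 also stood apart by keratins of cornifying epidermis. It held 161 reads of Krt1 against 0 to 3 in each of the other 7 tumours, 214 reads of Krt10 against 32 to 46 in the other controls, and all 4 reads of Flg. The part of these reads in the members' values was not tested.

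Other genes of the programme, none of them a member, were read from 4 lists. These lists too were chosen with earlier results of these data known, so their shares and medians beside those of all genes are a description. The list of cornified envelope and late differentiation genes had 81 genes in the table, of which 25 had no read in any tumour, among them Flg2, Krt2, Sprr3 and all late cornified envelope genes except Lce1m, and 20 could be tested. Of these 20, 6 rose and 2 fell in miR-21-KD (30% and 10%, beside 19.6% and 19.5% of all tested genes), and 12 did not pass, with a median log2 fold change of 1.08 against -0.01 over all genes. Sprr2a3, another small proline-rich protein, had 4 to 65 reads in VC and 355 to 2904 in miR-21-KD tumours, a log2 fold change of 5.91 (SE 0.91, adjusted p = 0.00571). Sprr2f rose by 4.53 (SE 0.74, adjusted p = 0.00632), Ly6d, a surface protein of keratinocytes and B cells, by 4.17 (SE 0.71, adjusted p = 0.00672), and Tgm1, the transglutaminase that crosslinks the envelope, by 1.28 (SE 0.25, adjusted p = 0.00916). Krt6a, a keratin of activated epidermis, had 12, 1, 5 and 0 reads in VC and 266, 16, 199 and 127 in miR-21-KD tumours (log2 fold change 5.09, SE 1.02, adjusted p = 0.00931). Krt78 had a single read in the VC tumours and 241 in the miR-21-KD tumours, a pooled ratio of 245.0 (95% interval 43.6 to 9717, counting error only). Of the 6 genes that rose, only Tgm1 had 10 reads in all 4 VC tumours. The others had them in 0 (Krt78 and Sprr2f), 1 (Krt6a), 2 (Sprr2a3) or 3 (Ly6d) and entered the test with the help of the group where they are high, so the share of this list that rose and its median are tied to the filter. Without VC 1 the log2 fold changes of Sprr2a3, Sprr2f and Krt6a were 6.98, 5.73 and 6.17, and without miR-21-KD 3 that of Sprr2a3 was 5.30. The ratio of Krt78 rests on the one control read, which was in VC 3. Reads of Sprr2a3 and Krt6a could be shared with their close relatives, and Krt16, the usual partner of Krt6a, had a log2 fold change of 0.52 (SE 0.60, adjusted p = 0.507).

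The 2 genes of that list that fell were Ppl, periplakin, an envelope protein that links to keratin filaments, by 2.03 on the log2 scale (SE 0.25, adjusted p = 0.00501), and Krt10, the keratin of suprabasal epidermis, by 1.94 (SE 0.61, adjusted p = 0.0351). Ppl had 695 to 1317 reads in VC and 162 to 296 in miR-21-KD tumours. The fall of Krt10 rested largely on VC 1 and was 0.94 on the log2 scale without it (adjusted p = 0.0325), and its call was lost without any one of the miR-21-KD tumours, with log2 fold changes of -1.90, -1.97, -1.82 and -2.08 for 1 to 4, and with limma-voom (-1.54, adjusted p = 0.0780). Lor had 3, 0, 0 and 1 reads in VC and 3, 0, 0 and 0 in miR-21-KD tumours, too few to compare. With the replicate block, 12 genes of the list rose, adding Serpinb2, Cdsn, Il1f9, Asprv1, Sbsn and Dmkn, and 3 fell, adding Evpl, envoplakin, at -0.82 (SE 0.26, adjusted p = 0.0473). Without VC 1, 10 rose.

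Of the 13 desmosome genes in the table, 8 could be tested, and 5 rose, 0 fell and 3 did not pass (62.5% and 0% of those tested, beside 19.6% and 19.5% of all tested genes), with a median log2 fold change of 1.24. Pkp1, a plakophilin of stratified epithelia, rose by 3.32 (SE 0.91, adjusted p = 0.0222), Dsp, desmoplakin, which anchors keratins to the desmosome, by 1.77 (SE 0.50, adjusted p = 0.0255), Dsg2 by 1.59 (SE 0.51, adjusted p = 0.0392) and Jup, plakoglobin, by 0.80 (SE 0.19, adjusted p = 0.0144), and Dsc2 was the fifth. Pkp1 and Dsc2 had 10 reads in only 2 and 3 VC tumours and entered the test with the help of the miR-21-KD tumours. The share of this list that rose and its median are therefore partly tied to the filter. The levels of Pkp1 were 6.34, 0.638, 2.20 and 0.489 CPM in VC and 39.1, 3.22, 27.8 and 27.8 CPM in miR-21-KD 1 to 4. For no gene of this list were the groups separated, and for each of the 5 genes that rose miR-21-KD 2 lay within the range of the controls. The calls depended on single tumours. That of Dsg2 was lost without any one of VC 2 to 4 or miR-21-KD 1, 3 and 4 (1.37 to 1.54), that of Dsp without VC 2, VC 3 or miR-21-KD 1, 3 and 4 (1.59 to 1.90), and that of Pkp1 without VC 2, VC 3 or miR-21-KD 1 and 4 (3.0 to 3.27). The call of Pkp1 was also lost with limma-voom (adjusted p = 0.0584) and that of Dsg2 without a filter on low counts (adjusted p = 0.0528). Without VC 1 the log2 fold changes of Pkp1 and Dsg2 were 4.44 and 2.21. In all, 1 gene rose without VC 2, 2 without VC 3, 3 without VC 4, and 1, 2 and 1 without miR-21-KD 1, 3 and 4. With the replicate block Pkp3 fell, at -0.53 (SE 0.12, adjusted p = 0.0157), which missed the threshold without it (adjusted p = 0.0511), and Pkp2 rose, at 1.02 (SE 0.31, adjusted p = 0.0409 against 0.0632).

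Of the 34 genes of basal epithelial identity in the table, 32 could be tested, and 17 rose, 2 fell and 13 did not pass (53.1% and 6.25% of those tested), with a median log2 fold change of 1.25. Krt5 and Krt14, the keratin pair of basal cells, had means of 11.6 ± 10.5 and 7.09 ± 6.05 CPM in VC and 87.2 ± 59.9 and 60.3 ± 29.8 CPM in the knockdown group (SD over 4 tumours each). Their log2 fold changes were 2.90 (SE 0.85, adjusted p = 0.0284) and 3.08 (SE 0.66, adjusted p = 0.0110), with groups that overlapped for Krt5 and did not for Krt14. Aqp3, a water and glycerol channel of basal keratinocytes, rose by 2.51 (SE 0.38, adjusted p = 0.00571), Gjb5, a connexin, by 2.35 (SE 0.41, adjusted p = 0.00693), and Bcam, a laminin receptor, by 1.21 (SE 0.23, adjusted p = 0.00849). Of the 17 that rose, 12 had 10 reads in all 4 VC tumours, and 5, Gjb5 among them, did not, so that the share that rose is partly tied to the filter.

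The basal genes that fell were both integrins that bind laminin in the basement membrane. Itgb4 fell by 1.59 on the log2 scale (SE 0.36, adjusted p = 0.0133), from 204 to 361 CPM in VC to 43.7 to 141 CPM in miR-21-KD tumours, and Itga3 fell by 1.46 (SE 0.49, adjusted p = 0.0426), from 572 to 827 CPM to 76.7 to 511 CPM. In the VC tumours these 2 integrins had means of 275 and 704 CPM against 11.6 and 7.09 CPM for Krt5 and Krt14, and the summed level of the list was 3197 to 4473 CPM in VC and 2917 to 3991 CPM in miR-21-KD tumours, so that the sum and the median of the list point in opposite directions. The number of genes that rose was 10 without VC 2, 7 without VC 3, 10 without miR-21-KD 1 and 9 without miR-21-KD 4. The number that fell was 1 without any one of VC 1, VC 2, VC 3, miR-21-KD 3 or miR-21-KD 4 and 5 without miR-21-KD 2. The call of Itga3 was lost without any one of VC 1 to 4, miR-21-KD 3 or miR-21-KD 4, with log2 fold changes of -1.55, -1.38, -1.40, -1.52, -1.48 and -1.31, and without a filter on low counts (-1.48, adjusted p = 0.0637). It was -2.05 without miR-21-KD 2. The call of Krt5 was lost without any one of VC 2, VC 3, VC 4, miR-21-KD 1, miR-21-KD 3 or miR-21-KD 4, with log2 fold changes of 2.60, 2.87, 2.65, 2.49, 2.94 and 2.79, with limma-voom (2.74, adjusted p = 0.0871) and without a filter on low counts (2.86, adjusted p = 0.0565). Without VC 1 the log2 fold changes of Krt5 and Krt14 were 3.72 and 3.75. The replicate block added Lamb3 to the genes that rose (1.98, SE 0.40, adjusted p = 0.0114) and Itga6 to those that fell (-0.85, SE 0.23, adjusted p = 0.0300).

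**Figure D3:**
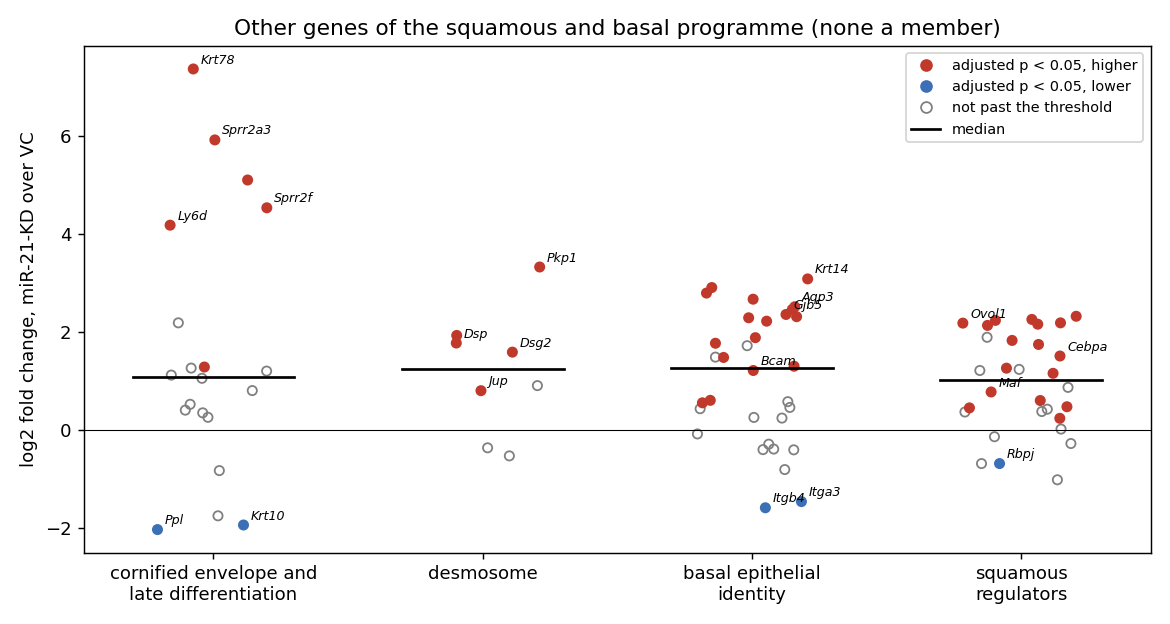
Log2 fold change of miR-21-KD over VC (vertical axis) for each tested gene of 4 lists, none a member, with filled points past an adjusted p of 0.05 (red higher, blue lower), open points not past it and black bars at the list medians. The medians lie between 1.01 and 1.25 in the 4 lists, and the genes that fell are Ppl, Krt10, Itgb4, Itga3 and Rbpj.

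Of the 35 regulators of squamous differentiation, 30 could be tested, and 17 rose, 1 fell and 12 did not pass (56.7% and 3.33% of those tested), with a median log2 fold change of 1.01. Those that rose included transcription factors that leukocytes or adipocytes also express, with Cebpa higher by 1.51 (SE 0.26, adjusted p = 0.00694) and Maf by 0.77 (SE 0.16, adjusted p = 0.00962). Ovol1, a factor of differentiating epidermis, rose by 2.18 (SE 0.47, adjusted p = 0.0109), from 0.239 to 0.958 CPM in VC to 1.41 to 2.92 CPM in miR-21-KD tumours, and by 2.82 without VC 1. Of the 17 that rose, 13 had 10 reads in all 4 VC tumours, and 4 did not, Ovol1 having them in 1. The share of regulators that rose is thus also partly tied to the filter. Rbpj, the DNA-binding partner of Notch, fell by 0.69 (SE 0.12, adjusted p = 0.00664). Klf4, which promotes the skin barrier, at 0.42 (SE 0.20, adjusted p = 0.115) did not pass, and Grhl3 was too scarce to test. The number that rose was 7 without VC 2, 5 without VC 3, and 10, 8 and 9 without miR-21-KD 1, 3 and 4, and the number that fell was 3 without miR-21-KD 2. The replicate block added Notch3, Ehf and Barx2 to the genes that rose (adjusted p = 0.0234, 0.0245 and 0.0323) and Sox9 and Tfap2a to those that fell (0.0265 and 0.0267), which made 20 and 3.

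**Figure D4:**
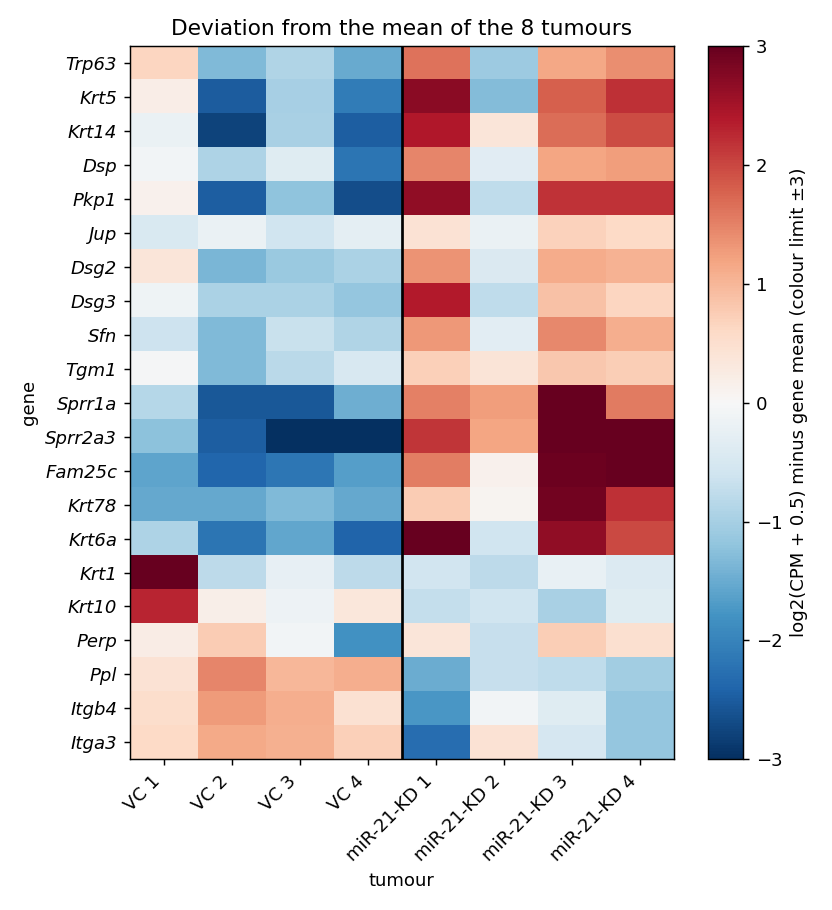
Deviation of log2(CPM + 0.5) from the mean of the 8 tumours (colour, limits ±3) for members and other genes of the programme (rows) in each tumour (columns), with VC to the left of the black line. Most rows are red in miR-21-KD 1, 3 and 4 and paler in miR-21-KD 2, Krt1 and Krt10 are red in VC 1, and Ppl, Itgb4 and Itga3 run the other way.

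Markers of other cells moved between the same groups, and they are given here since the tumours were not sorted. The 2 keratins that mark luminal and 4T1.13 tumour epithelium were 1021 ± 244 (Krt18) and 807 ± 173 CPM (Krt8) in VC and 459 ± 216 and 438 ± 213 CPM in the knockdown group (SD over 4 tumours each). Krt18 fell by 1.15 on the log2 scale (SE 0.37, adjusted p = 0.0374), a call lost without any one of VC 1, VC 2, VC 3, miR-21-KD 3 or miR-21-KD 4 (-1.15, -1.07, -1.09, -1.27 and -1.09) and without a filter on low counts (-1.18). Krt8 at -0.88 (SE 0.37, adjusted p = 0.0870) did not pass. It passed with the replicate block (-1.004, adjusted p = 0.0413), with DESeq2 (-0.87, adjusted p = 0.0405) and without miR-21-KD 2 (-1.13, adjusted p = 0.0432). Most other markers of the same lists went the other way. Of 8 tumour epithelium markers tested, 6 rose, by 1.26 to 3.08, and 1 fell. Those that rose include Krt14 (3.08), also in the basal list, and Esrp1 (2.25, SE 0.67), also among the regulators, which are counted again here. The luminal list below likewise shares Epcam with this list and Elf5 with the regulators. The summed level of the 8 markers was 1292 to 2243 CPM in VC and 781 to 1613 CPM in miR-21-KD tumours. Without Krt8 and Krt18, but with Krt14, it was 55.3 to 198 and 241 to 478 CPM. Of 14 mammary luminal markers tested, 9 rose, by 0.86 to 4.23, and 2 fell (sums 1517 to 2245 and 1000 to 2249 CPM, or 99.2 to 281 and 326 to 1114 CPM without both keratins), and only Wap was too scarce. Among those that rose, chosen after their values were seen, the luminal keratin Krt19 rose by 3.60 (SE 0.63, adjusted p = 0.00688; 4.28 without VC 1), the prolactin receptor Prlr by 4.23 (SE 0.58, adjusted p = 0.00523; 4.99 without VC 1) and the adhesion molecule Epcam by 1.93 (SE 0.50, adjusted p = 0.0182; lost without VC 3 at 1.92). Of 7 myoepithelial markers, which include Acta2 and Tagln, 4 rose and 0 fell (sums 200 to 312 and 339 to 512 CPM). Acta2 rose by 0.63 (SE 0.12, adjusted p = 0.00849) and Tagln by 0.75 (SE 0.21, adjusted p = 0.0254), and the call of Tagln was lost without VC 2, VC 3, miR-21-KD 3 or miR-21-KD 4 (0.60, 0.68, 0.64 and 0.73).

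Markers of skin appendages and stroma also differed. Of 18 hair follicle genes in the table, 6 hair keratins and related genes were at 0 in all tumours (Krtap3-1, Krt33a, Krt33b, Krt34, Krt35 and Krt72), and the sum was 0.239 to 1.62 CPM in VC and 2.59 to 8.67 CPM in miR-21-KD tumours. Most of this sum in the miR-21-KD tumours was Msx2, at 1.88 to 7.19 CPM, followed by Tchh, which is also in the cornified envelope list. The single hair follicle gene tested, Msx2, rose by 3.95 (SE 0.79, adjusted p = 0.00922), and by 5.41 without VC 1, but it had 10 reads in only 1 VC tumour. Of 7 salivary gland genes, Dcpp1, Bpifa2, Smr3a and Pip were at 0, both tested genes rose, Aqp5 by 2.92 (SE 0.39, adjusted p = 0.00520) and Amy1 by 2.84 (SE 0.67, adjusted p = 0.0143; 3.59 without VC 1 and 2.23 without miR-21-KD 4; 10 reads in only 2 VC tumours), and the sums were 3.27 to 4.94 and 11.9 to 48.9 CPM. Of 4 sebaceous gland genes tested, 1 rose, Plin2, which adipocytes and macrophages also express, by 1.10 (SE 0.26, adjusted p = 0.0138), while Far2 at 0.54 (SE 0.28, adjusted p = 0.156), Scd3 at -0.33 (SE 0.32, adjusted p = 0.422) and Awat2 at -1.13 (SE 0.68, adjusted p = 0.208) did not pass. The sums were 206 to 355 and 354 to 755 CPM, nearly all of it Plin2, and 3.07 to 4.72 and 3.53 to 4.38 CPM without Plin2. All 8 adipocyte genes rose (sums 195 to 509 and 709 to 1889 CPM), with Fabp4 at 1.88 (SE 0.42, adjusted p = 0.0124) and Cfd at 2.69 (SE 0.55, adjusted p = 0.00988). Of 9 leukocyte genes 6 rose (sums 842 to 1554 and 1626 to 2957 CPM), with Csf1r at 1.03 (SE 0.23, adjusted p = 0.0127) and Itgam at 0.98 (SE 0.20, adjusted p = 0.0101). Of 9 fibroblast and endothelial genes 4 rose (sums 3352 to 8085 and 10395 to 21982 CPM), with Col3a1 at 1.42 (SE 0.37, adjusted p = 0.0198, lost without VC 3 at 1.33) and Col1a1 at 1.48 (SE 0.34, adjusted p = 0.0134). Skeletal muscle genes, present where a tumour abuts the body wall, had 1 of 3 tested fall, Myh1 by 2.47 on the log2 scale (SE 0.66, adjusted p = 0.0209, lost without VC 3, miR-21-KD 1 or miR-21-KD 3 at -2.25, -2.34 and -2.23; -3.61 without miR-21-KD 2), and Tnni2 at 0.69 (SE 0.42, adjusted p = 0.208) did not pass (sums 8.53 to 12.5 and 5.63 to 9.58 CPM). The part of these cells in the members' values was not tested.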

How the data were processed

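RNA sequencing of 8 whole tumours (4 VC, 4 miR-21-KD) was analysed from the table of raw counts that the authors deposited, reads per Entrez gene and not normalized. The submitters' processing notes name Subread, featureCounts, edgeR, limma and the build mm10. Versions, strand and the treatment of shared reads are not given in the sources used here. Symbols and gene coordinates came from RefSeq on GRCm38.p6, and symbols matched 25275 of 27179 identifiers. Exon lengths and 3′UTRs came from GENCODE M21 on the same assembly. The members and all lists were chosen with earlier results of these data known.

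Genes were kept by filterByExpr (minimum count 10, minimum total 15), scaled by TMM and compared with edgeR 4.0.16 in R 4.3.3 (quasi-likelihood test, robust, Benjamini-Hochberg over 14382 genes, threshold 0.05), a procedure tested on simulated data. Scarce members are described by the ratio of pooled reads with an exact conditional 95% interval. A count of 0 allows up to 3 reads. The labels call the tumours replicates but do not link any to a named mouse, so the p-values measure the spread between these samples. No pair of tumours of a group agreed within sampling noise (chi-square per degree of freedom 12.6 to 70.7). Tumours of the same number in both groups deviated together, with correlations of 0.184 to 0.413 after removal of the group means, against -0.430 to 0.426 with a mean of -0.105 for unlike numbers (VC 3 was closest to miR-21-KD 2), and the replicate number was therefore also fitted as a block, with the block's result given where it changes a call. The pairing comes from the numbers in the labels and from this check only.

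Genes were named by a rule: all members, from each of the 4 lists the called genes with the 4 smallest adjusted p in each direction and a fixed set of keratins, desmosomal genes and regulators, all 14-3-3 and calmodulin genes, and the 2 most abundant genes of each list of other cells. A few genes that this rule selects are left unreported. Genes that changed call with the replicate block, and genes listed by position or by a count of 0, were named after their values were seen. Alternatives were DESeq2 1.42.0, scaling by library size or upper quartile, no filter, a minimum of 10 reads per tumour, limma-voom (limma 3.58.1), the replicate block and leaving out each tumour. Omitting both VC 1 and miR-21-KD 2 was added after seeing the data.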

Additional observations from a re-analysis of the deposited data

Results flagged for a closer look

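In 12 of 156 groups of 4 tumours examined, 1 tumour lay farther from the rest than Dixon's 95% limit allows. That limit marks about 1 in 20 groups of normally distributed values, but it was applied here to unlogged CPM, also of scarce genes. The number flagged is therefore not set against chance. Genes with fewer than 40 reads were not examined. VC 1 was that tumour 7 times. Among the members it was high for Trp63, at 6.41 CPM against 1.06 to 1.89 in the other controls, and for Dsg3, at 0.516 CPM against 0 to 0.0797. It was also high for Krt1, at 11.9 CPM against 0 to 0.236, for Krt10, at 15.8 CPM against 2.52 to 3.75, for Dsg2, at 9.503 CPM against 2.47 to 3.502, for Ovol1, at 0.958 CPM against 0.239 to 0.326, and for Amy1, at 2.65 CPM against 0.638 to 0.814.

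Sprr1a stood apart in miR-21-KD 3, at 31.1 CPM against 8.56 to 10.9 in the other knockdown tumours. The single read of Krt78 in the controls, 0.0787 CPM in VC 3, was set apart from 0 in the other 3. Among summed levels, the desmosome genes were low in miR-21-KD 2, at 210.4 CPM against 293.8 to 305.2, the basal identity genes were low in VC 4, at 3197 CPM against 4372 to 4473, and the skeletal muscle genes were high in VC 3, at 12.5 CPM against 8.53 to 8.71.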

How the results depend on the processing

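The members kept their values within the spread between tumours, or within their counting interval, in 113 of 122 recomputations and moved further in 9, and none of the higher members that were called turned direction. Omitting both VC 1 and miR-21-KD 2 gave log2 fold changes of 5.44 for Sprr1a and 3.03 for Trp63 and pooled ratios of 17.4 for Calml3 and 51.6 for Dsg3. Fam25c and Sprr1a could not be tested under a minimum of 10 counts in every tumour. With DESeq2, 11 cornified envelope genes rose, 1 desmosome gene fell and 3 regulators fell. Scaling by library size gave 1 desmosome gene and 2 regulators that fell. Without a filter, 3 desmosome genes rose and 1 basal gene fell, and with 10 or more reads required of all tumours 2 cornified envelope and 3 desmosome genes rose. With limma-voom, 1 cornified envelope gene and 3 regulators fell. With the replicate block, 12 cornified envelope genes rose, 1 desmosome gene fell and 3 regulators fell. Omitting both tumours gave 12, 2 and 3. Leaving out each tumour in turn gave 2936 to 6840 genes called. In the cornified envelope list 6 to 10 rose and 1 to 3 fell, among desmosome genes 1 to 5 rose and 0 to 2 fell, among basal genes 7 to 20 rose and 1 to 5 fell, and among regulators 5 to 21 rose and 1 to 3 fell. Among members, Perp turned to -0.04 without VC 4, the ratio of Dsc3 crossed 1 without VC 4, at 2.74, without miR-21-KD 2, at 1.28, without miR-21-KD 3, at 1.19, and with both tumours omitted, at 1.26, and Trp63 changed sides of the threshold as given above. Among other named genes directions turned for 2 near 0: Ywhag was at 0.0178 under upper-quartile scaling, 0.0261 with the count minimum, and -0.0851 to 0.0645 with tumours left out, and Calml4 at -0.0952 to 0.307. Of 803 recomputations for other named genes, 733 kept call and direction, 61 lost the call, 4 gained it and 5 turned. Krt19, Prlr, Epcam, Scd3 and Awat2, named after their values were seen, are not among these. They were refitted with the block, and the first 3 also without each tumour. The block changed no call of a named gene beyond those given with the results, Krt8 among them (-1.004, adjusted p = 0.0413). The causes were not tested. Depth limits Sprr1b, Ivl, Dsg3, Dsc3 and Calml3, which could not be tested.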
